A study of Mus musculus with 6 samples.

Results

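The genes described here mark the oligodendrocyte lineage from the precursor to the premyelinating cell, and were taken from the brain table as every probe whose symbol was Olig1, Olig2, Nkx2-2, Sox10, Pdgfra, Cspg4, Lhfpl3, Gpr17, Bcas1 or Enpp6. Of these 10 genes, 8 had a probe, and they held 9 of the 25697 probes in the table, since Nkx2-2 had a pair. The expression of Sox10 and Lhfpl3 was not analysed here. The study asked how human SRY, the male sex-determining gene, changes organs when it is switched on outside its normal place. Whole brains of male FVB mice (FVB/N in the methods) at postnatal day 6 were hybridised to Illumina MouseRef-8 v2.0 bead arrays, 3 from hSRY-OFF and 3 from hSRY-ON mice.

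In hSRY-ON mice a single-copy Signalox-hSRY transgene at the H11 locus had been recombined by Cre carried over in the egg of a Ddx4-Cre mother, so that the broadly active CAG promoter drove FLAG-tagged human SRY together with EGFP from the earliest embryo onward. In hSRY-OFF mice, as the methods define the name, the same transgene was not recombined, and the promoter drove DsRed2 with SRY silent. The text of the study also calls littermates without the responder transgene controls, and the labels do not say which kind the 3 arrays came from. The hSRY-ON mice chosen for the arrays did not carry Ddx4-Cre themselves. Because the transgene was on in the whole body, an effect within the brain cannot be told apart from one that reached it from other organs. The methods give 3 mice for each group, and the labels do not add litters.

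Oligodendrocytes, the myelin-forming cells of the central nervous system, arise from dividing precursors that are spread through the brain around birth. Olig1, Olig2, Nkx2-2 and Sox10 encode transcription factors that specify and mature the lineage, while Pdgfra, a receptor for platelet-derived growth factor, and Cspg4, which encodes the NG2 proteoglycan, mark the dividing precursor. As a precursor stops dividing it loses both surface proteins, passes through a stage marked by the receptor Gpr17, and turns on Bcas1 and Enpp6 before it makes the myelin proteins. In the mouse brain this step is under way in the first postnatal week.

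On the arrays, 14215 probes of 10548 symbols were detected well enough to be tested, and all 9 lineage probes were detected on all 6 arrays. The median intensity per array ranged from 200.2 to 219.8 and the number of detected probes from 13816 to 14377. Of the neuron markers that define the tissue, Syt1, Tubb3 and Stmn2 were detected on every array, and the single Snap25 probe was on none. The single probe of Nefl, a further neuron marker, was also detected on none. Values below are background-corrected, quantile-normalized log2 signals, and differences are log2 fold changes of hSRY-ON minus hSRY-OFF with the SE and an unadjusted 95% interval from limma. A probe was called when its p adjusted over all tested probes was under 0.05.

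The promoters of Olig2 and Enpp6 are shown because they were the 2 among the 6 promoters of these genes listed in the RefSeq table (GRCm38.p6, 250 bases before to 50 after the start) that held the letters AACAAT or, on the other strand, ATTGTT, a core sequence that the HMG box of SRY and SOX proteins binds. The letters are in capitals. In Olig2 (chr16:91225300-91225599, plus strand) the match began 67 bases before the start, and in Enpp6 (chr8:46986637-46986936, plus strand) 220 bases before it.
Olig2: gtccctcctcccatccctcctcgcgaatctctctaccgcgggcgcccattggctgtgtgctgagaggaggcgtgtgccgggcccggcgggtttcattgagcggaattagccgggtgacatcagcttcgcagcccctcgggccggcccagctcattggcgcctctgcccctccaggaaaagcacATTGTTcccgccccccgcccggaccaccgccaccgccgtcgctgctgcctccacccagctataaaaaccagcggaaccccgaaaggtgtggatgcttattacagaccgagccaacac
Enpp6: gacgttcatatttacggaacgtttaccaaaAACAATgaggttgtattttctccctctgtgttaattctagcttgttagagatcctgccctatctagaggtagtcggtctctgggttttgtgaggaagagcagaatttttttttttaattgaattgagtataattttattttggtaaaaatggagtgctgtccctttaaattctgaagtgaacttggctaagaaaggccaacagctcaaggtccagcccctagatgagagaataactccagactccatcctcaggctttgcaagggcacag
Of all 32851 promoters of that length in the table, 3521 (10.7%) held the same letters. A match of 6 letters describes the sequence and was not tested for binding. The promoters of Nkx2-2, Pdgfra, Cspg4 and Lhfpl3 held no match in this window. Those of Olig1, Sox10, Gpr17 and Bcas1 were not listed and were not searched.

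Most lineage probes read lower in hSRY-ON brain, and the one that passed the test was Gpr17, at 1.66-fold lower. Of the 9 probes, 8 had a lower mean in hSRY-ON and 1, Pdgfra, a higher one. Gpr17 made 1 of 9 called (11.1%), where 2.17% of all tested probes were called, 1.32% lower and 0.844% higher. At an unadjusted p under 0.05, 7 of the 9 probes were lower, against 10.9% of all tested probes. On 7 of the 9 every hSRY-ON array lay below every hSRY-OFF array, against 14.2% of all tested probes. On Pdgfra every hSRY-ON array lay above. The share of all tested probes with every hSRY-ON array above was not counted, for Pdgfra or for genes named later.

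The median log2 fold change of the 9 probes was -0.31, while that of all tested probes was 0.0048 with quartiles of -0.14 and 0.14. Array by array, the median of the 9 probes relative to their hSRY-OFF means was -0.014, 0.020 and 0.0052 in hSRY-OFF and -0.30, -0.28 and -0.30 in hSRY-ON. The 3 hSRY-ON brains thus differed little from each other in this median. In RNA from whole brain, fewer cells of the lineage and less RNA of these genes per cell cannot be told apart.

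**Figure D1:**
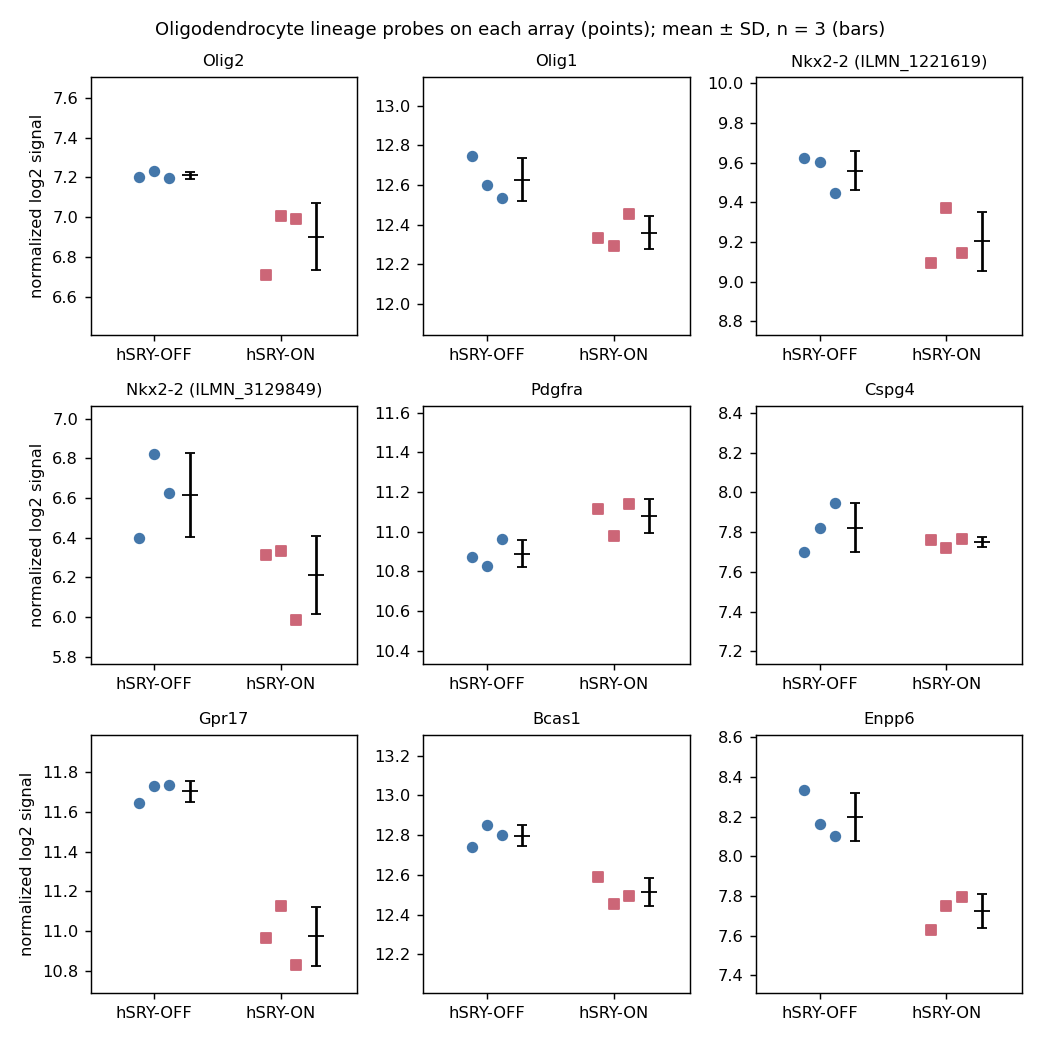
Normalized log2 signal of the 9 probes, 1 panel per probe with the same height of scale, for hSRY-OFF (circles) and hSRY-ON (squares); each point is an array, and the bars give the mean ± SD (n = 3). The groups do not overlap in 8 panels, with hSRY-ON lower in 7 and higher for Pdgfra, and they overlap for Cspg4.

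Among the transcription factors, all 4 tested probes were lower on the hSRY-ON arrays and none was called. Olig2, the basic helix-loop-helix factor needed to form the lineage, read 7.20, 7.23 and 7.20 in hSRY-OFF and 6.71, 7.01 and 6.99 in hSRY-ON on the log2 scale. The hSRY-OFF values lay close together and hSRY-ON replicate 1 was the lowest. The log2 fold change was -0.31 (SE 0.10, interval -0.55 to -0.07, adjusted p = 0.151), and without hSRY-ON replicate 1 it was -0.21.

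Olig1, which lies beside Olig2 in the genome and acts later in maturation, had a bright probe with log2 signals of 12.75, 12.60 and 12.54 in hSRY-OFF and 12.33, 12.29 and 12.45 in hSRY-ON. All hSRY-ON arrays were lower, and the gap between the closest arrays of the groups was narrower than the range within hSRY-OFF. The means were 12.63 ± 0.11 and 12.36 ± 0.08 (SD, n = 3), a log2 fold change of -0.27 (SE 0.09, interval -0.48 to -0.05, adjusted p = 0.160).

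Nkx2-2, a homeodomain factor that acts in the switch from precursor to differentiating cell, had probes of unequal brightness that moved the same way. The brighter, ILMN_1221619, read 9.62, 9.60 and 9.44 in hSRY-OFF and 9.09, 9.37 and 9.14 in hSRY-ON. Its log2 fold change was -0.36 (SE 0.10, interval -0.60 to -0.11, adjusted p = 0.120). The dimmer, ILMN_3129849, read 6.40, 6.82 and 6.62 against 6.31, 6.33 and 5.98, for which limma gave -0.40 (SE 0.14, adjusted p = 0.171). On the dim probe the lowest hSRY-OFF array and the highest hSRY-ON array were close, and without background correction its log2 fold change was -0.15; that of Olig2, also dim, was then -0.14.

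Neither of the tested precursor surface genes was called, and their means lay on opposite sides of 0. Pdgfra, the receptor through which PDGF-A keeps precursors alive and dividing, read 10.87, 10.83 and 10.96 in hSRY-OFF and 11.12, 10.98 and 11.14 in hSRY-ON. The lowest hSRY-ON array was only just above the highest hSRY-OFF array. The means were 10.89 ± 0.07 and 11.08 ± 0.09 (SD, n = 3), a log2 fold change of 0.19 (SE 0.08, interval -0.0084 to 0.39, adjusted p = 0.254), so the difference did not pass the test.

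Cspg4 gave log2 signals of 7.70, 7.82 and 7.95 in hSRY-OFF and 7.76, 7.72 and 7.77 in hSRY-ON. The hSRY-ON values fell inside the hSRY-OFF range. The log2 fold change was -0.07 (SE 0.09, adjusted p = 0.683), with an interval from -0.28 to 0.13. Without hSRY-OFF replicate 1 it was -0.13, and without hSRY-OFF replicate 3 it was -0.01.

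Cells other than precursors also express these genes, Cspg4 in pericytes and Pdgfra in fibroblasts, and their markers were lower in sum on the hSRY-ON arrays. All 9 pericyte markers were tested, 3 higher and 6 lower with a median log2 fold change of -0.11, and their summed normalized signal ran from 4979 to 5180 in hSRY-OFF and from 3703 to 4451 in hSRY-ON. Without Vtn the pericyte sums overlapped, at 2285 to 2326 in hSRY-OFF and 2034 to 2371 in hSRY-ON. Of these markers, Vtn, which encodes vitronectin, fell (log2 fold change -0.59, SE 0.10, adjusted p = 0.0386), while the defining receptor Pdgfrb gave 0.0095 (adjusted p = 0.979). For fibroblast and meningeal markers 6 of 7 genes were tested, 1 higher and 5 lower with none called, and the sum ran from 4373 to 4445 in hSRY-OFF and from 3053 to 4002 in hSRY-ON. The defining collagen gene Col1a1 was detected on every array, and Col1a2 on none. Their part in the values of Cspg4 and Pdgfra was not tested.

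The committed and premyelinating genes were lower on every hSRY-ON array. Gpr17, a G protein-coupled receptor present for a short time in committed precursors, had intensities before normalization of 3762, 3498 and 3401 in hSRY-OFF and 2189, 2264 and 1894 in hSRY-ON. Its normalized log2 signals were 11.64, 11.73 and 11.73 against 10.96, 11.13 and 10.83. The gap between the groups was wider than the range within either. The means were 11.70 ± 0.05 and 10.97 ± 0.15 (SD, n = 3), and Gpr17 fell by 0.73 on the log2 scale (SE 0.10, interval -0.96 to -0.50, adjusted p = 0.0263).

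The Gpr17 call rested on all but 1 of the arrays. Without any one of the other 5, its adjusted p was 0.0614 to 0.111, and without hSRY-ON replicate 3 it was 0.0309. The log2 fold change in these 6 fits stayed between -0.81 and -0.65. Over all settings, Gpr17 passed under 10 of 16 alternatives. It also missed the threshold with the replicate block, where all 6 arrays were kept (limma, adjusted p = 0.0989). Only 1.03% of tested probes had a log2 fold change as low as that of Gpr17.

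Enpp6, a choline phosphodiesterase of newly forming oligodendrocytes, had intensities of 521, 432 and 412 in hSRY-OFF and 354, 351 and 362 in hSRY-ON, and log2 signals of 8.33, 8.16 and 8.10 against 7.63, 7.75 and 7.80. The groups were apart by more than the range within either, with hSRY-OFF replicate 1 the highest. The log2 fold change was -0.47 (SE 0.09, interval -0.70 to -0.25), and the adjusted p of 0.0549 missed the threshold. Enpp6 passed under 6 of 16 alternative settings, and without background correction the log2 fold change was -0.30.

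Bcas1, which marks oligodendrocytes that are starting to myelinate, gave log2 signals of 12.74, 12.85 and 12.80 in hSRY-OFF and 12.59, 12.45 and 12.49 in hSRY-ON. Its arrays were tight in both groups. The means were 12.80 ± 0.05 and 12.51 ± 0.07 (SD, n = 3), a log2 fold change of -0.29 (SE 0.08, interval -0.47 to -0.10, adjusted p = 0.108).

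**Figure D2:**
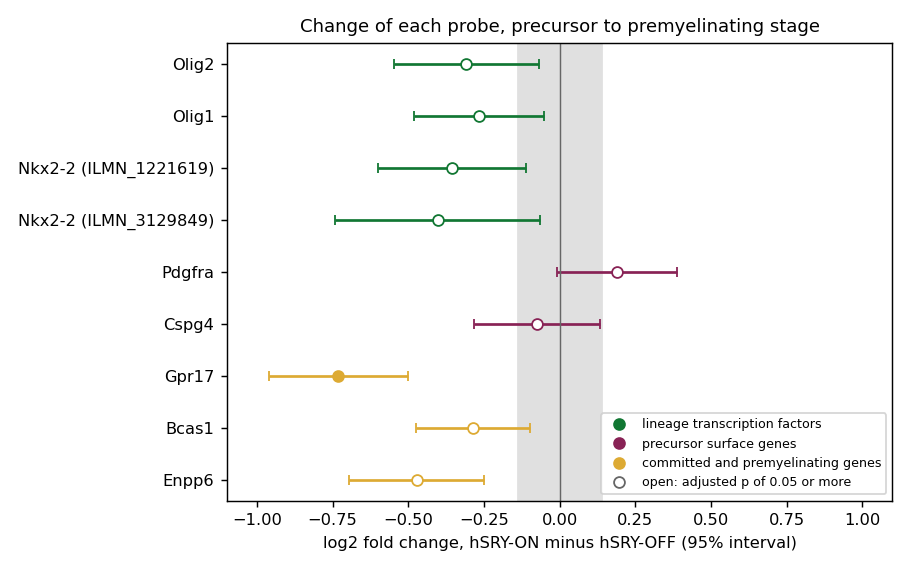
Log2 fold change of each probe (points) with its unadjusted 95% interval (bars), in order of stage; the shaded band holds the middle of all tested probes, from -0.14 to 0.14, and a filled point is an adjusted p under 0.05. Gpr17 is filled and lies farthest to the left at -0.73, and Pdgfra lies on the right at 0.19.

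Set side by side, the interval of Gpr17 lay wholly below those of Bcas1, Olig1, Cspg4 and Pdgfra and overlapped those of Enpp6, Olig2 and both Nkx2-2 probes. Differences between genes were not tested. Within each array, the log2 ratio of Gpr17 to Pdgfra, relative to its hSRY-OFF mean, was -0.046, 0.089 and -0.043 in hSRY-OFF and -0.97, -0.67 and -1.13 in hSRY-ON. The same ratio for Enpp6 was 0.15, 0.023 and -0.17 against -0.80, -0.54 and -0.65, and for Cspg4 -0.11, 0.057 and 0.050 against -0.29, -0.19 and -0.31. These ratios were chosen after the values were seen and are given as a description. In each, the hSRY-ON arrays lay below the hSRY-OFF arrays. The divisor Pdgfra was itself higher on every hSRY-ON array, which lowers every such ratio. By its own signal, Cspg4 overlapped between the groups.

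**Figure D3:**
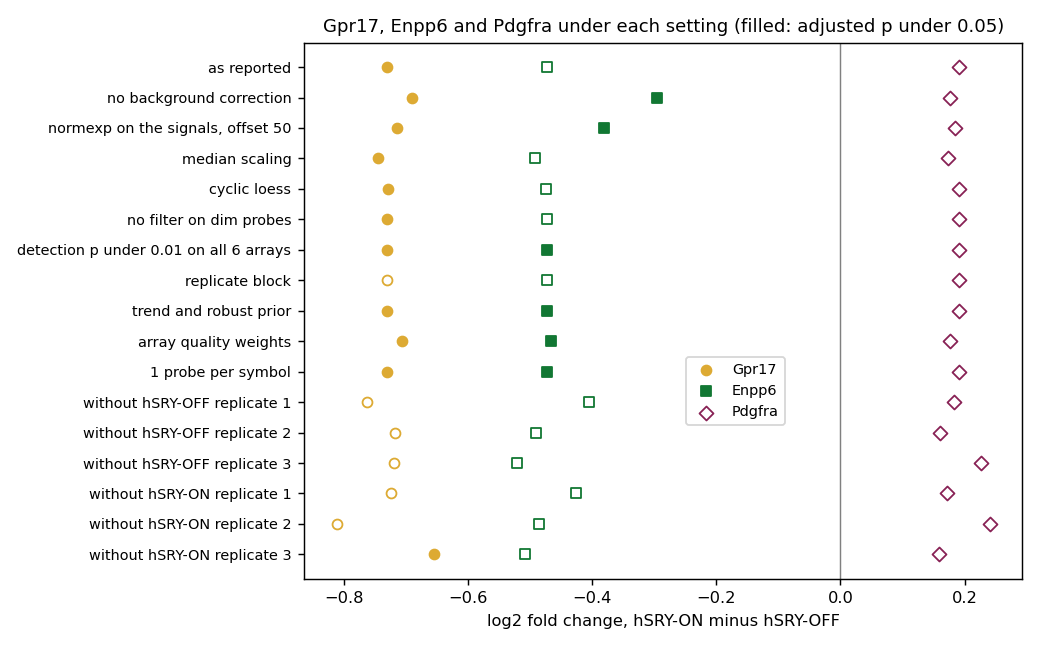
Log2 fold change of Gpr17 (circles), Enpp6 (squares) and Pdgfra (diamonds) under each processing setting, including fits without 1 array; a filled point is an adjusted p under 0.05. Gpr17 stays between -0.81 and -0.65 and Enpp6 between -0.52 and -0.30, while Pdgfra stays between 0.16 and 0.24 and is never filled.

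Other genes of the precursor stage were mixed. Of 18 further precursor genes 13 were tested, 5 higher and 8 lower with none called, and their median log2 fold change was -0.03. C1ql1, a precursor-enriched secreted protein, gave -0.0072 (SE 0.09, adjusted p = 0.976). The probe for Vcan, the proteoglycan versican, was detected on 1 array and was not tested, and Ptprz1 was not analysed here.

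Factors that promote differentiation were tested for 6 of 10 genes, 2 higher and 4 lower with none called and a median of -0.09. Tcf7l2, a Wnt effector of the newly formed cell, had a probe at 0.28 (SE 0.10, adjusted p = 0.169) and a dimmer one, detected on 3 arrays, at 0.60 (SE 0.13, adjusted p = 0.0595). Both were higher on every hSRY-ON array without passing the test. Zfp488 was not detected on any array, and Myrf was not analysed here.

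Factors that hold precursors back were tested for 7 of 8 genes, 3 higher and 4 lower with none called and a median of -0.03. Id2, an inhibitor of basic helix-loop-helix factors, gave 0.34 (adjusted p = 0.106) on its brighter probe and 0.20 (adjusted p = 0.622) on the other, and its relative Id4 gave 0.28 (adjusted p = 0.442). Hes5, a Notch target, gave -0.36 (adjusted p = 0.168) and -0.20 (adjusted p = 0.315) on its probes. These repressors therefore had no common direction.

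Ligands that act on precursors were tested for 10 of 12 genes, 6 higher and 4 lower with none called and a median of 0.12. Pdgfa, whose product binds the Pdgfra receptor, gave 0.14 (SE 0.09, adjusted p = 0.409), and Pdgfc gave -0.05 (SE 0.10, adjusted p = 0.819). Fgf2 was not detected on any array. None was called among the morphogen and growth factor genes, with Shh at -0.18 (SE 0.15, adjusted p = 0.533) and -0.42 (SE 0.25, adjusted p = 0.396) on its probes, Bmp4 at 0.26 (SE 0.14, adjusted p = 0.335) and Igf1 at -0.19 (SE 0.10, adjusted p = 0.309).

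Receptors on precursors were tested for 11 of 16 genes, 7 higher and 4 lower, with a median of 0.09. The insulin-like growth factor receptor Igf1r rose by 0.65 on the log2 scale (SE 0.08, adjusted p = 0.0263). It was the only one called in this list, which also counts Pdgfra.

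Downstream of these stages, genes of the newly formed oligodendrocyte were divided, and myelin genes were lower. Of 13 newly formed cell genes 8 were tested, 4 higher and 4 lower with a median of 0.04. Cnksr3, a scaffold protein gene of that stage, fell by 0.66 on the log2 scale (SE 0.09, adjusted p = 0.0263). Itpr2, a calcium channel gene, gave -0.10 (SE 0.08, adjusted p = 0.553), and none of the probes of Fyn, a kinase of process outgrowth, was detected on enough arrays to be tested.

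Of 15 myelin genes 12 were tested, and all 12 had a lower mean in hSRY-ON, with a median of -0.43 and 3 called. Mobp, a structural myelin protein gene, fell, with log2 fold changes of -1.05 (SE 0.10, adjusted p = 0.0225) and -1.36 (SE 0.22, adjusted p = 0.0348) on its called probes and -0.98 (adjusted p = 0.0637) on the other. Fa2h and Ugt8a, enzymes of myelin galactolipid synthesis, fell, with values of -0.96 (SE 0.12, adjusted p = 0.0263) and -0.78 (SE 0.13, adjusted p = 0.0396). The myelin protein genes Mog and Mbp did not pass, with Mog at -0.92 (adjusted p = 0.0702) and -1.03 (adjusted p = 0.0580), and Mbp at -0.47 (adjusted p = 0.0601), -0.42 (adjusted p = 0.270) and 0.012 (adjusted p = 0.960). The Mbp probes thus did not share 1 value. As with Gpr17, the calls in these lists needed the arrays together: without any one of 5 arrays, at most 1 probe of any gene was called, and without hSRY-ON replicate 3, 417 were.

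**Figure D4:**
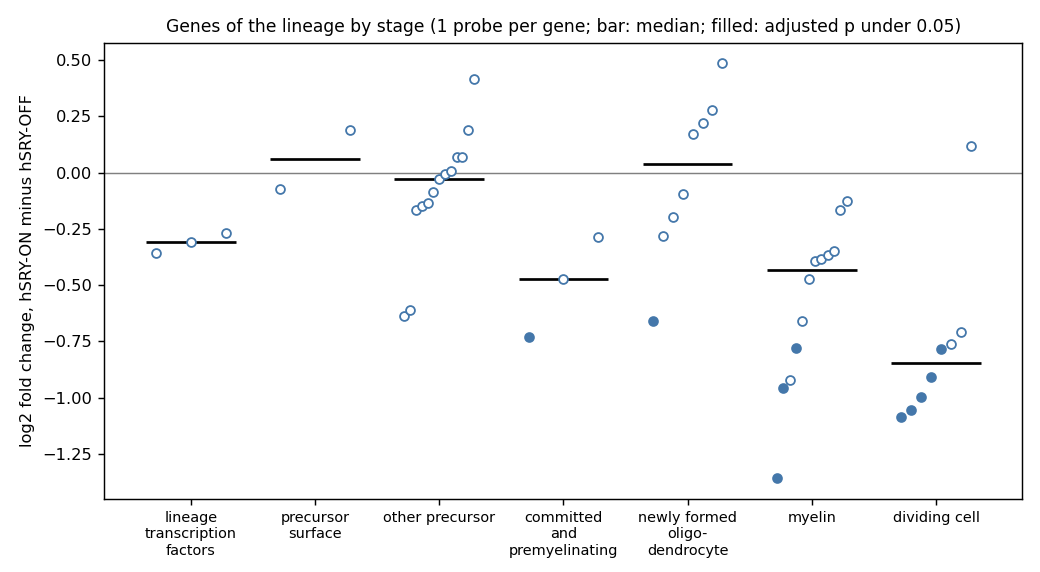
Log2 fold change of each tested gene (1 point per gene, its brightest probe) in lists ordered by stage, with dividing cell genes last; bars give the median and filled points an adjusted p under 0.05. The committed genes (median -0.47), myelin genes (-0.43) and dividing cell genes (-0.85) lie mostly below 0, while other precursor genes (-0.03) and newly formed oligodendrocyte genes (0.04) lie on both sides.

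Genes of dividing cells, which include precursors but also neuronal progenitors at this age, were lower. Of 13 such genes 8 were tested, 1 higher and 7 lower, with a median of -0.85 and 5 called. Top2a, a DNA topoisomerase, fell, with a value of -1.08 (SE 0.16, adjusted p = 0.0327), as did Cdk1, the mitotic kinase, with -1.05 (SE 0.20, adjusted p = 0.0484). The mitotic regulators Plk1, Birc5 and Ccnb1, the last pair on their called probes, fell too, with -0.997 (adjusted p = 0.0294), -0.91 (adjusted p = 0.0360) and -0.79 (adjusted p = 0.0479). Their sum of normalized signals was 4301 to 4859 in hSRY-OFF and 2130 to 3128 in hSRY-ON, lower on every hSRY-ON array as were 7 of the 9 lineage probes but not Pdgfra or Cspg4, and its part in the lineage values was not tested.

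Markers of the other brain cells had smaller median differences than the committed, myelin and dividing cell genes. The astrocyte and microglia medians were farther from 0 than those of the precursor surface, other precursor and newly formed cell genes. For astrocytes 7 of 8 genes were tested, 2 higher and 5 lower with a median of -0.22. Of these, the water channel gene Aqp4 fell by 0.81 (SE 0.11, adjusted p = 0.0275) and the filament gene Gfap by 0.83 (SE 0.12, adjusted p = 0.0308). The astrocyte sum overlapped between groups, at 43416 to 43715 in hSRY-OFF and 41843 to 47435 in hSRY-ON. None of 5 tested neuron genes or 7 microglia genes was called, with medians of -0.02 and 0.21. The neuron sum overlapped between groups with Stmn2, and without it ran from 12354 to 13190 in hSRY-OFF and from 10912 to 12184 in hSRY-ON. Slc17a7, a glutamate transporter gene of neurons singled out after its values were seen, gave -0.63 (SE 0.13, adjusted p = 0.0595), with every hSRY-ON array below every hSRY-OFF array. The part of these neuron values in the lineage values was not tested. The microglia sum was higher on the hSRY-ON arrays, at 2300 to 2589 in hSRY-OFF and 2786 to 3042 in hSRY-ON, and its part in the lineage values was not tested. Of 6 Schwann cell genes, which would mark attached nerve, 3 were tested and none called, and their summed signal was low, at 560 to 861 in hSRY-OFF and 743 to 781 in hSRY-ON.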

How the data were processed

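The authors deposited a table of mean bead signal intensity for each probe and array, on a linear scale with no normalization, and a detection p-value beside each intensity. The study's methods name TCC for normalization and testing and the submitters' processing notes name limma, without settings. TCC was not used here. In R 4.3.3 with limma 3.58.1, the background was inferred from the detection p-values, intensities were corrected (nec, offset 16), quantile normalized and put on the log2 scale. Dim probes become noisier through this correction. A probe entered the fit where 3 or more of the 6 arrays had a detection p-value below 0.05, and the fit used lmFit and eBayes (group as the only term, two-sided, Benjamini-Hochberg over all tested probes). The same steps were run on simulated arrays, whose noise model and recovery criterion were revised after a first simulation missed that criterion. Precision is limited by 3 arrays per group.

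Groups and replicate numbers came from the labels. Genes were matched by symbol. Of 155 listed genes, 139 matched directly, 4 by an older symbol (Zfp24, Cxcr2, Mycl and Cdk1), and for 12 no probe was found. A list takes the brightest tested probe of each gene. All probes of the lineage genes are named, and from the other lists every called gene and a fixed set, of which 1 gene is not reported here. The genes and lists were chosen with earlier results of these data known. Background correction, normalization, filter, replicate block, prior, array weights, probe choice and each array left out were varied. Promoters came from RefSeq (GRCm38.p6) and were searched in Python 3.11.15, and plots were drawn with matplotlib 3.10.9.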

Additional observations from a re-analysis of the deposited data

How the results depend on the processing

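The 9 lineage probes kept their direction under each of 16 alternatives, except that the dim Nkx2-2 probe had no value under 2 of them, the stricter detection filter and 1 probe per symbol, and kept it under the other 14. Calls among all probes and among the lineage probes were 308 and 1 as reported. They were 1317 and 5 without background correction, 860 and 2 with normexp on the signals (offset 50), 705 and 2 with detection p under 0.01 on all 6 arrays, 1447 and 5 with a trend and robust prior, and 480 and 2 with array quality weights. With no filter on dim probes 123 probes were called in all. With 1 probe per symbol 375 of 10548 probes and 2 of 8 lineage probes were called. Without 1 array, calls ranged from 0 to 417 over all probes and from 0 to 1 among the lineage probes. In the fits with no lineage call, 5 to 7 lineage probes were still at an unadjusted p under 0.05. In limma fits, no probe of any gene was called without hSRY-OFF replicate 1, hSRY-OFF replicate 3 or hSRY-ON replicate 2 (2493, 2433 and 2690 at an unadjusted p under 0.05), 1 was called without hSRY-OFF replicate 2 or hSRY-ON replicate 1, and 417 without hSRY-ON replicate 3. The median log2 fold change of the lineage probes was -0.26 without background correction and -0.27 with normexp, and -0.36 to -0.30 without 1 array. The cause of these shifts was not tested. Each list's median kept its sign with median scaling, cyclic loess, normexp on the signals or no background correction. Without background correction several medians were smaller by over 1.5 times, among them the committed genes (-0.30), pericyte markers (-0.04), fibroblast markers (-0.16), differentiation factors (-0.04), ligands (0.05), receptors (0.05) and newly formed oligodendrocyte genes (0.0028). With normexp so were pericyte markers (-0.06), differentiation factors (-0.06), ligands (0.08), other precursor genes (-0.02), neuron markers (-0.01) and newly formed oligodendrocyte genes (0.02).

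With the replicate block, 0 probes were called in all and 0 among the lineage probes, where 2906 and 7 had an unadjusted p under 0.05, and Gpr17 had an adjusted p of 0.0989. After each probe's group mean was subtracted, the remainders were correlated between hSRY-OFF and hSRY-ON arrays only. Among these pairs, arrays with the same number had the highest r, though it was low (0.040, 0.029 and 0.025, other pairs -0.023 to -0.0054). Nothing in the labels says that a number marks a shared litter or day, so the samples were not treated as paired.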

Other observations

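The array profile most like the mean scaled profile of the 9 lineage probes belonged to AI504432 (Pearson r = 0.999 over 6 arrays), followed by 2310016E02Rik, Mcm10, Ccng1 and Gldc (r = 0.998, 0.998, 0.997 and 0.995). Their log2 fold changes were -0.55, -0.29, -0.53, -0.42 and -0.15. In all, 236 probes of other genes had an r over 0.95, and since the 6 arrays are shared and the profile mainly separates the groups, these values describe the arrays and no more.

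Matn4, which encodes a matrilin of the precursor's matrix, was singled out after its values were seen. Its 3 probes gave log2 fold changes of -0.57, -0.64 and -0.53, with adjusted p of 0.0618, 0.0636 and 0.0891, and on each the groups did not overlap. Other genes were higher in hSRY-ON, also without overlap and without being called. Among the other precursor genes, Sox4 gave 0.42 (adjusted p = 0.0698) and the Sox5 probe ILMN_1244213 gave 0.47. The brightest Sox5 probe gave 0.19, with overlap. Mycl, among the newly formed oligodendrocyte genes, gave 0.48 (adjusted p = 0.0527).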
